A study of Homo sapiens with 12 samples.

Results

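The genes described here were the human U3 snoRNA genes SNORD3A, SNORD3B-1, SNORD3B-2, SNORD3C and SNORD3D, the U8 gene SNORD118 and the U13 gene SNORD13, which are 7 of 62700 annotated genes. They were chosen by the presence of ChIP-seq summits at these genes in the data, so each count of summits on them is a description and was not tested. A summit was assigned to a gene when it lay inside the annotated limits extended by 500 bp on each side. This gave 13 of the summits in 4 lists of 739, 56, 1094 and 297 summits.

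Most box C/D snoRNAs are cut from introns of host transcripts and guide the methylation of ribosomal RNA. U3, U8 and U13 are known for having promoters of their own, of the type used by spliceosomal snRNA genes, and for acting in the processing or modification of ribosomal RNA rather than as ordinary methylation guides. U3 pairs with the precursor of 18S rRNA and organises the small-subunit processome, U8 acts in the maturation of the large-subunit rRNAs, and U13 guides the acetylation of 18S rRNA.

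The summits report chromatin immunoprecipitated through the GluGlu tag of an EGFR chimera in B2B1 cells. B2B1 is a single clone of MCF10A-5E, an established human breast epithelial line. Both groups carried the same pair of transgenes, NGFR-EGFR-FRB-GluGlu with the intracellular domain of human EGFR and NGFR-Erbb2-2xFKBP-HA with that of rat Erbb2. AP21967 (AP) joins the FRB and FKBP domains and thereby the chimeras. Cells were grown in overlay culture for 6 days and given 0.5 µM AP (plus AP) or 0.1% ethanol (minus AP) for 24 h. They were harvested on day 7, with 2 biological replicates per condition. Of 12 libraries, the 4 GluGlu libraries were analysed. The 8 libraries of input chromatin and naive IgG were not analysed here, so the values have no control immunoprecipitate beside them. Summit lists hold no expression values, so the epithelial identity of the cells was not checked against markers. The lists differed in length (739 and 56 for minus AP replicates 1 and 2, 1094 and 297 for plus AP replicates 1 and 2), and the reads behind them are unknown.

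The U3 genes form a cluster on chromosome 17 (GRCh38) that spans 128333 bp between the outermost gene starts. SNORD3B-1 (19061912–19062669, plus strand) and SNORD3B-2 (19063346–19064136, minus strand) are an inverted pair whose starts lie 2224 bp apart. SNORD3A (19188016–19188714, plus strand) and SNORD3C (19189665–19190245, minus strand) are a second inverted pair, with starts 2229 bp apart. SNORD3D (19112419–19112636, minus strand) lies alone between the pairs, inside the longer lncRNA gene ENSG00000262202 on the same strand. In RefSeq each of the U3 genes is 217 bases long, and the GENCODE limits run further downstream, by 1 base at SNORD3D and further at the others.

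The sequences of the 217-base U3 genes are shown because the copies differ at few positions. How the paired reads were placed at a copy was not tested. The sequences were read from the GRCh38 genome at the RefSeq limits, 5′ to 3′ on the strand of the gene. Capitals mark the 4 positions at which any of the copies differ.
SNORD3A (chr17:19188016-19188232, plus strand): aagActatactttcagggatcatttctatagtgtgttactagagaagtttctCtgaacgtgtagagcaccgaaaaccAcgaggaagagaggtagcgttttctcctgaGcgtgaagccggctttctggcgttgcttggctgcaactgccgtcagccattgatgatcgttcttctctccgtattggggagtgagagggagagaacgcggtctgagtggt
SNORD3B-1 (chr17:19061912-19062128, plus strand): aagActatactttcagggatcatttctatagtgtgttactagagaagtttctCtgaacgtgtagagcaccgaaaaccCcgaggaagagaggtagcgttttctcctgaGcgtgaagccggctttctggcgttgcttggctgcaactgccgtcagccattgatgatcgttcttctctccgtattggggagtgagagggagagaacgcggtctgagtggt
SNORD3C (chr17:19190029-19190245, minus strand): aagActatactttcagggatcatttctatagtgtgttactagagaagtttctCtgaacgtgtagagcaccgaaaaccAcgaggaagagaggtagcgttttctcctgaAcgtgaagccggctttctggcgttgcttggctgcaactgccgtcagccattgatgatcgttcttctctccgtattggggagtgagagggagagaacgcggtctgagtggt
SNORD3D (chr17:19112420-19112636, minus strand): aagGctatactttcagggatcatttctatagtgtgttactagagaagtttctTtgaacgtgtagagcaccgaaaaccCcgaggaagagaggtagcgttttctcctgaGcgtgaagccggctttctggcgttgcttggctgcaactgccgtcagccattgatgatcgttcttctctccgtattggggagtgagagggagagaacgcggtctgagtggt

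The SNORD3B-2 gene (chr17:19063920-19064136, minus strand) was identical to SNORD3B-1 over its 217 bases. Counted from 1 at the 5′ end of U3, with the base of SNORD3A first, the SNORD3B copies differed from SNORD3A by A78C and SNORD3C by G108A. SNORD3D was the most divergent copy, with A4G, C53T and A78C, and was still 98.62% identical to SNORD3A. The identity of the 10 pairs of copies ranged from 98.16% (SNORD3C with SNORD3D) to 100%.

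The similarity continued beyond the genes. The 250 bases before the start were identical in SNORD3A and SNORD3C and in SNORD3B-1 and SNORD3B-2, and all pairs of copies were at least 98.8% identical there. The 500 bases after the gene were identical in SNORD3A and SNORD3C, whereas the lowest identity was 92.66% (SNORD3B-1 with SNORD3D), mostly through insertions and deletions. The sequence before SNORD3A is printed as the shared upstream region, with its CCAAT match in capitals.
SNORD3A upstream (chr17:19187766-19188015, plus strand): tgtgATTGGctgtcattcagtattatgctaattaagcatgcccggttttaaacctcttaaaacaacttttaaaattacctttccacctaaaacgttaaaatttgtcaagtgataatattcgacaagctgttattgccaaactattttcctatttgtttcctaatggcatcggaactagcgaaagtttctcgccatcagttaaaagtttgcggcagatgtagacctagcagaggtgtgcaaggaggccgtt
CCAAT was searched on both strands of the 300 bases from 250 before to 50 after each start, together with the octamer ATGCAAAT and TATAAA. The CCAAT match lay on the opposite strand, from 246 to 242 bases before the start, in all 5 U3 genes, and 34.6% of 35116 RefSeq promoter windows (GRCh38) of the same length hold CCAAT. ATGCAAAT and TATAAA were found in none of the 5 windows, against 1.77% and 11.5% of all promoter windows. These are matches of letters in a window and say nothing of binding.

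All 5 U3 genes had a summit in both replicate 1 libraries and none had a summit in either replicate 2 library. In minus AP replicate 1 there were 5 summits at the 5 U3 genes, in plus AP replicate 1 again 5, and in minus AP replicate 2 and plus AP replicate 2 there were 0. The summit nearest to the U3 genes lay between 24.2 and 24.3 Mb away in minus AP replicate 2, and between 2.62 and 2.75 Mb away in plus AP replicate 2. Within 500000 bp of the cluster on either side, the 4 lists together held 10 summits, and these were the 10 at the U3 genes. In these lists the U3 summits thus followed replicate number, with and without AP. The replicate 2 lists were the shorter (56 and 297 summits), and the 5 near-identical copies are not 5 independent observations.

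SNORD118 (chromosome 17, 8173454–8173587, minus strand), which lies within the 3′ UTR of TMEM107 transcripts on the same strand, showed another distribution. It had a summit in both plus AP libraries and none in the minus AP libraries, where the nearest summits lay 10.9 Mb (replicate 1) and 35.2 Mb (replicate 2) away. SNORD13 (chromosome 8, 33513475–33513578, plus strand) starts 290 bp from the start of TTI2, which runs in the opposite direction. It had a summit in plus AP replicate 2 alone, and the nearest summits of the other libraries lay between 9.72 and 14.2 Mb away.

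Counted over the 7 genes, 5 had a summit in minus AP replicate 1, 0 in minus AP replicate 2, 6 in plus AP replicate 1 and 2 in the second plus AP replicate. The share of all 62700 annotated genes with a summit by the same definition was 0.201%, 0.100%, 0.278% and 0.547% in the same order. Both replicates of minus AP shared a summit at 0 of the 7 genes (0.0510% of all genes), and both replicates of plus AP at 1, SNORD118 (0.116% of all genes). Since the genes were selected on these summits, nothing is read from the difference to all genes, and with 2 libraries per condition no test of AP was made.

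**Figure D1:**
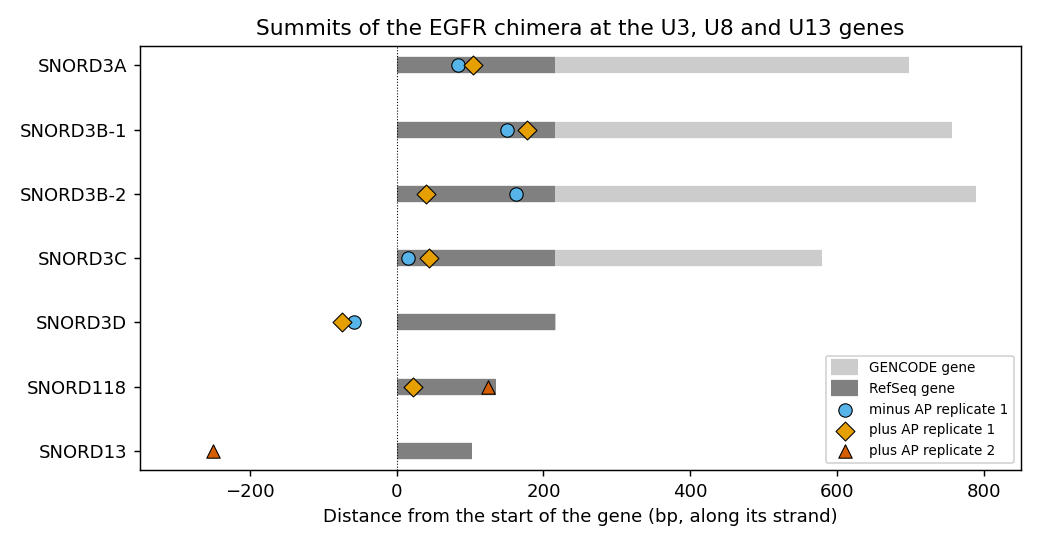
Position of each summit (symbols, by library) relative to the start of its gene in bp along the strand of the gene. Dark grey bars are the RefSeq genes and light grey bars the GENCODE genes. The 8 summits of SNORD3A, SNORD3B-1, SNORD3B-2 and SNORD3C lie inside the 217-base genes and both SNORD3D summits lie upstream, and minus AP replicate 2 has no symbol.

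The U3 summits lay at the gene itself. Of the 10, 8 lay inside the 217-base gene and 2, both at SNORD3D, lay upstream of the start, with a median of 63.5 bp after the start. At SNORD3A, the summit lay 83 bp after the start in minus AP replicate 1 (chr17:19188099) and 104 bp after it in plus AP replicate 1 (chr17:19188120). At SNORD3B-1, the summits lay further into the gene, 151 bp and 177 bp after the start in the same libraries. SNORD3C, the inverted partner of SNORD3A, had its summits near the start, 15 bp and 44 bp into the gene.

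At these genes the summits of the replicate 1 libraries lay close together, 21 bp apart at SNORD3A, 26 bp at SNORD3B-1 and 29 bp at SNORD3C. The SNORD3D summits were 16 bp apart, at 58 bp and 74 bp before the start. SNORD3B-2 was the exception among the U3 genes, with summits 163 bp after the start in minus AP replicate 1 and 40 bp after it in plus AP replicate 1, a distance of 123 bp. At SNORD118 the summits of plus AP replicates 1 and 2 lay 23 bp and 125 bp after the start, both inside the gene and 102 bp apart. The SNORD13 summit lay 250 bp before the start of SNORD13 and 40 bp from the nearest TTI2 transcript, so it was closer to TTI2.

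Each summit was also paired with the closest GENCODE transcript that does not contain it. This pairing, made here and not taken from the study, moved most summits to another gene. Whether the gene assignments of the study followed such a rule was not tested. By this rule both SNORD3B-1 summits went to SNORD3B-2 (1283 and 1257 bp away) and both SNORD3B-2 summits to SNORD3B-1. Likewise, the SNORD3A summits went to SNORD3C and the SNORD3C summits to SNORD3A, between 1487 and 1566 bp away. The SNORD118 summits went to a TMEM107 transcript (178 and 280 bp away) and the SNORD13 summit to TTI2. The SNORD3D summits, which lie outside the gene, stayed with SNORD3D and the lncRNA gene around it.

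**Figure D2:**
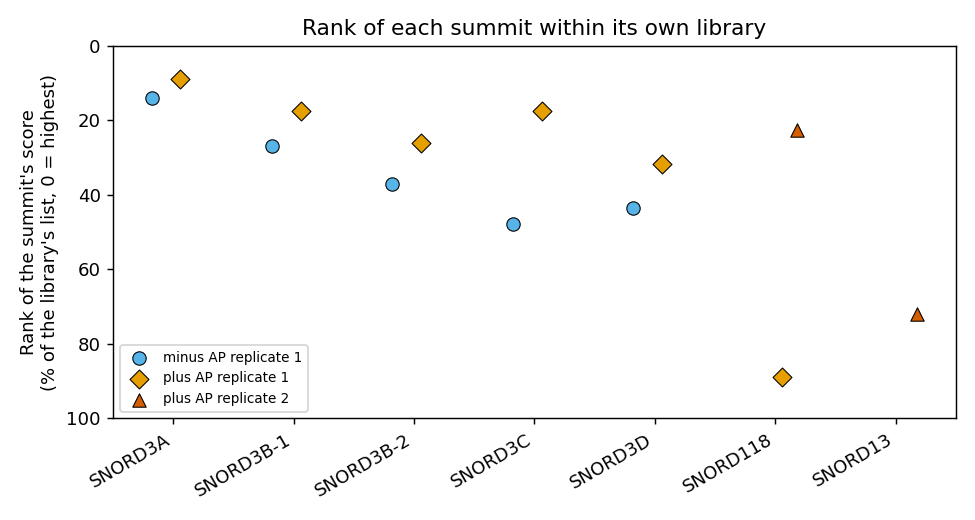
Rank of each summit by its score as a percentage of the length of its library's list (y axis, 0% at the top is the highest score), for each gene (x axis) and library (symbols). SNORD3A ranks highest among the U3 genes in both replicate 1 libraries, and SNORD118 is near the bottom of the list in plus AP replicate 1 (88.8%) but at 22.6% in plus AP replicate 2.

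Each summit has a score, a −log10 q-value from MACS2, and the scores were used as ranks within a library. SNORD3A had the highest rank of the U3 genes in both replicate 1 libraries. Its score was 31.8 in minus AP replicate 1, rank 104 of 739, and 48.7 in plus AP replicate 1, rank 96 of 1094. SNORD3B-1 followed in minus AP replicate 1 with rank 198, before SNORD3B-2 (rank 275, 1 of 7 summits with the same score), SNORD3D (rank 321) and SNORD3C (rank 353).

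In plus AP replicate 1 the order below SNORD3A differed. SNORD3B-1 and SNORD3C tied at rank 192, SNORD3B-2 had rank 284 and SNORD3D rank 346. SNORD3C thus stood last of the U3 genes without AP (47.8% of the list) and level with SNORD3B-1 with AP (17.6% of the list). As a share of the list, the rank of each U3 gene was nearer to the top in plus AP replicate 1 than in minus AP replicate 1. By the rank itself, SNORD3A, SNORD3B-1 and SNORD3C stood higher in plus AP replicate 1. SNORD3B-2 (275 without AP, 284 with AP) and SNORD3D (321 and 346) stood lower, and the plus AP list is the longer (1094 against 739). Both comparisons rest on a single library per condition, and on lists of unequal length whose depth is unknown, so they have no replicate check.

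SNORD118 had a score of 2.1 and rank 972 of 1094 in plus AP replicate 1, 1 of 17 summits with the same score, so it was near the end of that list. In plus AP replicate 2 its score was 6.3 and its rank 67 of 297. SNORD13 had a score of 3.18 in that library and rank 214. Among summits within 10000 bp of an annotated gene, SNORD3A stood at rank 5 of 177 in minus AP replicate 1 and at rank 3 of 250 in plus AP replicate 1.

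**Figure D3:**
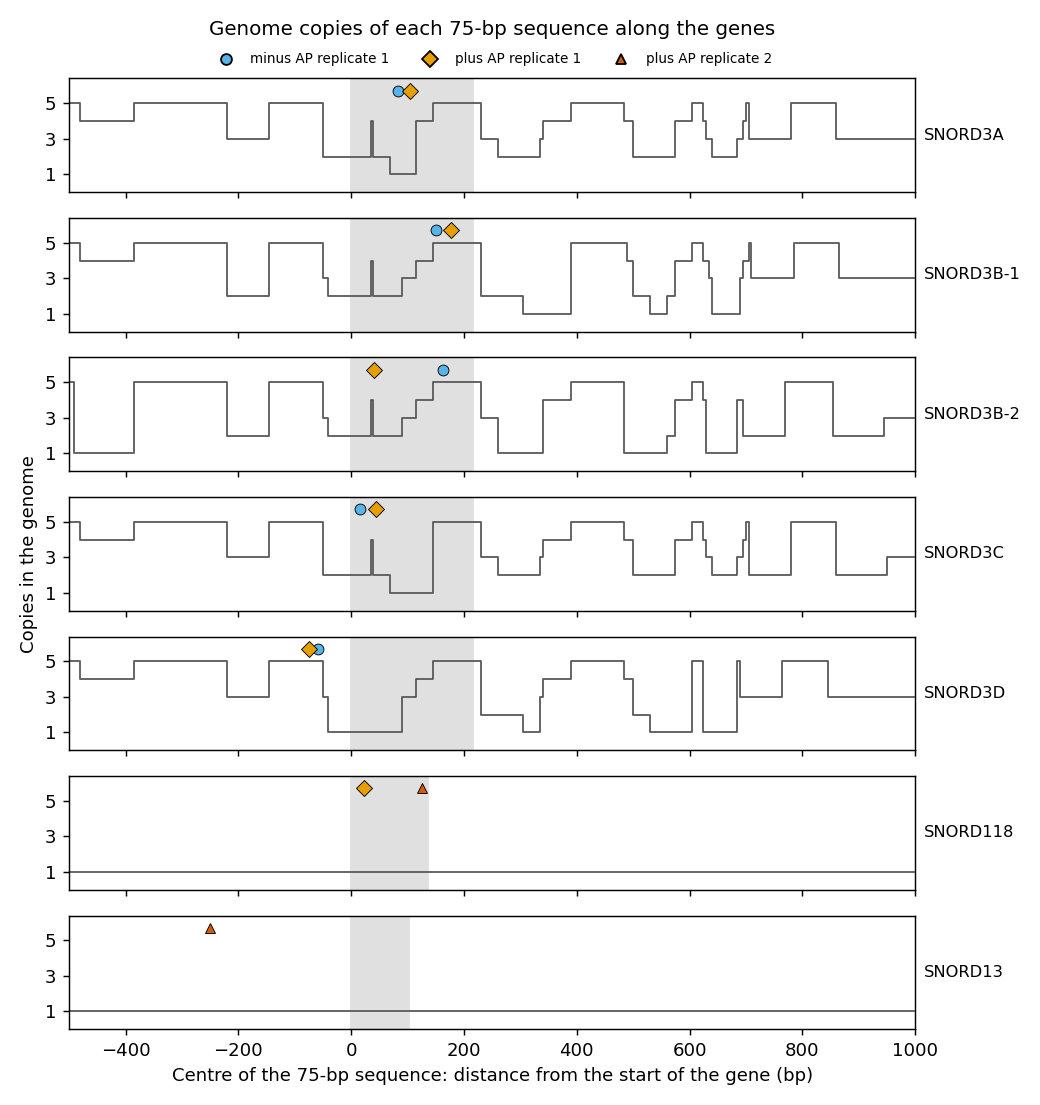
Number of places in the genome (y axis) at which each 75-bp sequence occurs, plotted at the distance of its centre from the gene start in bp (x axis), for the 7 genes. Shading marks the RefSeq gene and symbols above the line the summits by library. Sequences of the U3 genes occur at up to 5 places, and every sequence plotted for SNORD118 and SNORD13 occurs at 1.

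The authors state that they kept uniquely mapped reads. Repeats were therefore counted among the 75-bp sequences, the length of a read, around each summit. A repeat was a sequence found more than once in the genome on either strand. Alternate haplotypes were left out of this count, so copies on them were not seen. The replicate 1 lists do hold summits on alternate haplotypes, 2 in minus AP and 5 in plus AP. Within 250 bp of the U3 summits, between 69.6% and 100% of the 427 75-bp sequences occurred more than once, with a median of 82.4% over the 10 summits. They occurred at up to 5 places. All 9066 other places counted over the 10 windows lay within 2000 bp of the start of another or the same U3 gene. Around the 2 SNORD118 summits and the SNORD13 summit, 0.0% of the sequences were repeated.

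The copies differed in how much of their own sequence was found once. SNORD3D had the largest share, with 130 of 427 sequences around either summit. SNORD3B-2 had none around its summit in plus AP replicate 1, where the nearest sequence found once was centred 220 bp away, and 79 of 427 around its summit in minus AP replicate 1. Both SNORD3A summits lay in the stretch of the gene where 75 bases cover positions 78 and 108 together, and the sequence centred on each occurred once in the genome. At the other 8 U3 summits the central sequence occurred at 2 or 5 places.

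The 75 bases centred on a summit show this difference, with capitals at bases that differ between U3 copies at the same distance from the start. The SNORD3A sequence covers both positions 78 and 108, whose combination is found in no other copy, the SNORD3C sequence is shared with SNORD3A, and the SNORD3B-1 sequence holds no position that differs.
SNORD3A, minus AP replicate 1 (chr17:19188062-19188136, plus strand): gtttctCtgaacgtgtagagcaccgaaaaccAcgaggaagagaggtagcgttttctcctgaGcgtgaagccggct
SNORD3C, plus AP replicate 1 (chr17:19190164-19190238, minus strand): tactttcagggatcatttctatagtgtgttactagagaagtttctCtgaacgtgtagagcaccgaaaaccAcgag
SNORD3B-1, minus AP replicate 1 (chr17:19062026-19062100, plus strand): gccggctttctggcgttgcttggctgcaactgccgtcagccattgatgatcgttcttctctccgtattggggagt

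Repeated windows were common in the replicate 1 lists in general. A majority of the 75-bp sequences were repeated around 65.8% of the summits in minus AP replicate 1 and 70.3% in plus AP replicate 1. In replicate 2, the highest share around any summit was 7.96% with or without AP, so that no summit there had a window like those of the U3 genes. The U3 summits and repeated windows thus occurred in the same libraries. Whether reads from 1 U3 copy contributed to summits at others was not tested, since the lists hold no reads. Whether the stated filter for uniquely mapped reads acted alike in all 4 libraries was likewise not tested.

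**Figure D4:**
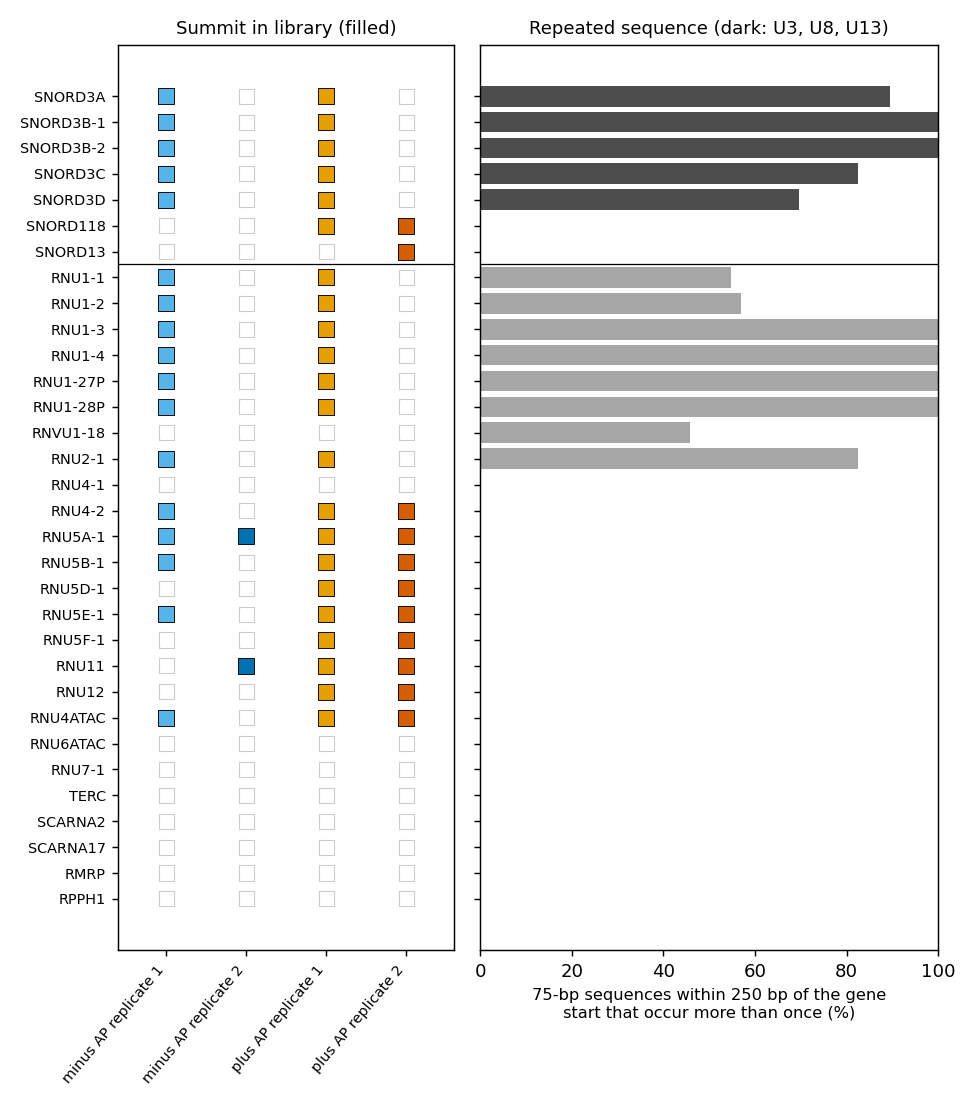
Presence of a summit in each of the 4 libraries (left, filled squares) and percentage of 75-bp sequences within 250 bp of the gene start that occur more than once (right, bars from 0), for the 7 snoRNA genes and 25 other small RNA genes. The U3, U1 and U2 genes with summits are filled in the replicate 1 columns only and have bars from 54.8% to 100%, and genes filled in a replicate 2 column have bars of 0.0%.

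The same pattern was seen at other small RNA genes with promoters of their own. Of 25 such genes, 12 had a summit in minus AP replicate 1 (against 0.201% of all genes) and 2 in minus AP replicate 2 (against 0.100%). In plus AP, 16 of the 25 had a summit in replicate 1 (against 0.278%) and 9 in replicate 2 (against 0.547%). The 7 with summits in replicate 1 libraries only were the genes of U1 snRNA, which recognises the 5′ splice site (RNU1-1, RNU1-2, RNU1-3, RNU1-4, RNU1-27P and RNU1-28P), and RNU2-1 of U2 snRNA, which pairs with the branch point. Around their starts between 54.8% and 100% of 75-bp sequences were repeated, compared with 69.6% to 100% for the U3 genes.

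The 9 with a summit in a replicate 2 library were RNU4-2, RNU5A-1, RNU5B-1, RNU5D-1, RNU5E-1, RNU5F-1, RNU11, RNU12 and RNU4ATAC, all with 0.0% repeated, as at SNORD118 and SNORD13. All 9 also had a summit in plus AP replicate 1. The other 9 genes had no summit, among them TERC (telomerase RNA) and the scaRNA genes SCARNA2 and SCARNA17. Of these 9, RNVU1-18 had 45.9% of its sequences repeated and the rest had 0.0%. Genes with 0.0% repeated thus included some without a summit in any library. As with U3, presence in these lists was known when the genes were listed, and the split was not tested.

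Other annotated copies of these snoRNAs were also counted. Among 55 U3 records outside the 5 genes, 22 U8 records and 4 U13 records, 1 record had a summit, in plus AP replicate 2. This is 1.23% of the 81 records, against 0.547% of all genes in that library, a share that rests on a single record. It was a U3 record inside TEX14 (ENSG00000212195, chromosome 17, 58631641–58631836, minus strand). It was 78.6% identical to SNORD3A over 192 aligned bases, with 0.0% of 75-bp sequences repeated around its summit, which had rank 281 of 297.

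Genes for proteins that work with U3 and its relatives, or with small RNA genes of this type, were listed with 99 members in all. Of these, 2 had a summit in minus AP replicate 2 (2.02%, against 0.100% of all genes), 2 in plus AP replicate 2 (2.02%, against 0.547%) and 0 in each replicate 1 library (against 0.201% and 0.278% without and with AP). Each share above 0 rests on 2 genes, and the difference from all genes was not tested. Of 5 genes for the core proteins of box C/D particles and the U3-specific protein, NOP56, a core scaffold protein, had a summit in minus AP replicate 2 (rank 55 of 56, 40 bp after the gene start). Of 38 genes of the small-subunit processome, DCAF13 had a summit in plus AP replicate 2 (rank 279 of 297). Of 32 genes for Integrator, cap and export factors, INTS6, a subunit of the Integrator complex that processes snRNA ends, had a summit in minus AP replicate 2 (rank 33 of 56) and in plus AP replicate 2 (rank 47 of 297). None of 9 assembly factors of box C/D particles and none of 15 promoter factors of snRNA genes had a summit in any of the 4 libraries. All of these summits were in replicate 2 libraries, where the U3 genes had none.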

How the data were processed

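Paired 75-bp reads were mapped by the authors to GRCh38 (Bowtie2 2.2.9). By their methods, uniquely mapped, non-duplicated reads were kept. Peaks were called per library with MACS2 2.2.7.1 against input chromatin (versions per the submitters' processing notes). The methods name input chromatin as the control, whereas the results text of the study speaks of naive IgG, and the lists do not settle which control the scores refer to. The deposited score of each summit is the −log10 of its q-value, used here only for ranks, with the best rank given to ties. Read depth is unknown, so no interval can be given. Samples were grouped from their labels.

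Genes were from GENCODE 44, 217-base U3 limits from RefSeq, and sequences from GRCh38 without alternate haplotypes. The 2 SNORD3D records counted as 1 gene. Copies of 75-bp sequences were exact matches on both strands. Identities come from global alignments with gaps counted (the TEX14 record without gaps). Python 3.11.15, numpy 2.4.6, pandas 2.3.3, numba 0.67.0, Biopython 1.88 and matplotlib 3.10.9 were used, and counting was tested on simulated data. All 7 genes were named, and genes of the fixed lists where they had a summit. The genes and lists were chosen with earlier results of these data known. No test was run. Alternatives changed gene limits, score minimum, ranks, windows, sequence length and replicates.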

Additional observations from a re-analysis of the deposited data

How the results depend on the processing

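Of 65 alternative values, 54 stayed within 1.5 times the reported count or rank, or within 1 SD of the reported median, and 11 did not. With gene limits not extended, or with summits given to the nearest gene start, 1 gene in place of 2 had a summit in plus AP replicate 2, because SNORD13 was lost, and without the extension 1 summit remained there. Counting families once left 1 (U3) in minus AP replicate 1 and 2 (U3 and U8) in plus AP replicate 1. With either replicate left out, so that a condition rested on a single library, 0 to 5 genes had a summit in minus AP and 2 to 6 in plus AP. Restricted to summits within 10000 bp of a gene, the best rank was 5 in minus AP replicate 1 and 3 in plus AP replicate 1. The median share of repeated sequences at the U3 summits was 65.9% with 150-bp sequences. RefSeq limits, chosen after seeing the data, changed no count. No paired analysis was made, because no test was run. Within replicate number 1, 5 genes had a summit without AP and 6 with AP, and within replicate number 2, 0 and 2. The number of reads per library, which limits what a missing summit means, is unknown.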

Other observations

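Among the 934 snoRNA records other than the 7 genes described above, 735 lie within a protein-coding or lncRNA gene. A summit was found at 0 of the 934 in minus AP replicate 1, 2 in minus AP replicate 2, 4 in plus AP replicate 1, and 17 in its replicate 2. These are 0.00%, 0.214%, 0.428% and 1.82% of the records, against 0.201%, 0.100%, 0.278% and 0.547% of all genes in the same order, and the difference was not tested. Some neighbouring or overlapping records had the same rank, such as SNORD25 and SNORD26 in SNHG1 at rank 88 in plus AP replicate 2. Such records may share a summit, so counts of records can exceed counts of summits. Every record with a summit was within a host gene. In plus AP replicate 1 these were SNORA73B in SNHG3, SNORD12C in ZFAS1, and SNORD60 with an overlapping record in SNHG19, each of which also had a summit in plus AP replicate 2. SNORA73B stood at rank 27 of 297 in plus AP replicate 2, while its rank was 627 of 1094 in replicate 1, and the ranks of SNORD12C were 45 and 366. SNORA50C and an overlapping record in SNHG25 had a summit in both replicate 2 libraries. The summit stood at rank 37 of 56 in minus AP and at rank 37 of 297 in plus AP. The hosts named here are transcripts whose introns release snoRNAs.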
